A study of Mus musculus with 8 samples.

Results

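The transcripts of polyamine metabolism were followed in white gastrocnemius, the fast-twitch part of the calf muscle, of 8 mice. The genes were Odc1, Amd1, Amd2, Srm, Sms, Smox, Sat1, Oaz1 and Azin1, and all their non-control probes were taken, found by matching the accession of each probe to RefSeq. Of 9 genes 8 had a probe, with 18 probes among the 55681 of the array, which name 20972 genes, while 0 probes matched Amd1. All 18 were well above background in 8 of 8 animals and were tested. The set was chosen by the strong spread between animals of the log2 intensity of Amd2, Smox and Odc1, so every value of these 3 is given as a description with no test, and tests are given for Srm, Sms, Sat1, Oaz1 and Azin1.

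Polyamines (putrescine, spermidine and spermine) are small positively charged molecules that bind nucleic acids and are needed for growth and translation. Ornithine decarboxylase (Odc1) makes putrescine, and S-adenosylmethionine decarboxylase (Amd1, Amd2) makes the aminopropyl donor that spermidine synthase (Srm) and spermine synthase (Sms) use to lengthen it. Spermine oxidase (Smox) turns spermine back to spermidine, the acetyltransferase Sat1 marks polyamines for breakdown and export, antizyme (Oaz1) sends ornithine decarboxylase to the proteasome, and the antizyme inhibitor Azin1 counteracts antizyme. In skeletal muscle of mice, Odc1, Amd1 and Smox are known as genes that respond to androgens.

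Sequence before the start of the genes with the large spread is shown, with that of Amd1, because Amd2 carries nearly the same enzyme as Amd1 on another stretch of chromosome 10. The sequences are RefSeq's of build GRCm38.p6, 5′ to 3′ on the gene's strand, and they stop at the first base of the annotated gene. They cover chr12:17544623-17544807 (plus strand), chr10:40302189-40302438 (minus strand), chr10:35711892-35712141 (minus strand) and chr2:131491612-131491857 (plus strand). Capitals mark the GC box GGGCGG on either strand.
Odc1: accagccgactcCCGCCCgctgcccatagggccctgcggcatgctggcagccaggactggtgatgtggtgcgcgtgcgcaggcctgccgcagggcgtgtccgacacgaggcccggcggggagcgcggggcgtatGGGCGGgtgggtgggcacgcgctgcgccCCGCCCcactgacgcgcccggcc
Amd1: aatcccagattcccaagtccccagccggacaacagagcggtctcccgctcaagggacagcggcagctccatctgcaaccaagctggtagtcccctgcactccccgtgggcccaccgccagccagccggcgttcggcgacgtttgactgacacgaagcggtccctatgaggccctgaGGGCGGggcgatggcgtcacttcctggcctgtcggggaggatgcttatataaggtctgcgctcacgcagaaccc
Amd2: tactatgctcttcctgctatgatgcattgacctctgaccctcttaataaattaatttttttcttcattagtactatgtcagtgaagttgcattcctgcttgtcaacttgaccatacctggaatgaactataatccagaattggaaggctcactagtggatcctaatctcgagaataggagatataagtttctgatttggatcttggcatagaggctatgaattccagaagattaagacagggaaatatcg
Smox: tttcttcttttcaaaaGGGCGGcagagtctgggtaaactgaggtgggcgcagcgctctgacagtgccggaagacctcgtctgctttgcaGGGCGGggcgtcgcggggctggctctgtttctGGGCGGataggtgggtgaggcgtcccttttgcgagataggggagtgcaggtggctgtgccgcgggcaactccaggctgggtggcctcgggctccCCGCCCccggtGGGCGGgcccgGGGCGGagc

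The gene of Amd1 spans 14731 bases and that of Amd2 spans 3201 bases. Around their starts both share an unbroken run of at least 48 bases, which begins at the first transcribed base of Amd2. The run reaches the end of the window searched, 50 bases after the start of Amd1, so its full length is not known. The longest run shared before the starts is 7 bases. GC content of the sequence shown was 37.6% for Amd2, against 64.4% for Amd1, 67.9% for Smox and 77.8% for Odc1, and the median of all promoters over 250 bases was 52.4%. A GC box was found 3 times for Odc1, 1 time for Amd1, 6 times for Smox and 0 times for Amd2. Of 32851 promoters over 250 bases, 32.7% held one. The androgen response element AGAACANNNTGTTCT (found in 0.00913% of promoters), its half-site AGAACA (16.1%), the E-box CACGTG (6.02%) and the TATA box TATAAA (12.4%) were searched on both strands and had 0 matches in these 4 sequences, which says only that these letters are not in these windows. The half-site is part of the whole element. The probe sequences were not analysed here, so whether the probes named Amd2 also bind the Amd1 transcript was not tested.

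The animals were 14 to 16 weeks old, on a C57BL/6J background after 5 generations of backcrossing, and either wild type for Pus1 or homozygous for a mutant Pus1, which encodes pseudouridine synthase 1. Each of 4 two-colour arrays held RNA from the frozen white portion of the muscle of 1 mutant and 1 wild type mouse, matched for sex, giving pairs 1 and 2 of males and pairs 3 and 4 of females. The mutant was in Cy5 (red) in pairs 1 and 3 and in Cy3 (green) in pairs 2 and 4, and no other treatment is given. There were thus 4 animals of each genotype, 4 of each sex and 2 of each combination. Because each array held 1 sex, the sexes were compared between arrays. Between 38.0% and 46.5% of spots per animal were well above background. The Y-linked genes Ddx3y and Eif2s3y separated the 4 males (log2 intensity of at least 10.38 for Ddx3y) from the 4 females (at most 6.60), as labelled. The targeted gene, Pus1, read 8.06, 8.36, 8.15 and 8.29 in wild types 1 to 4 and 6.75, 6.91, 6.49 and 6.85 in mutants 1 to 4. The mutants lay below without overlap, by a fitted log2 ratio of −1.46 (SE 0.10, limma adjusted p = 0.0786). The major fast myosin gene Myh4 had log2 intensity of 17.59 to 18.73 over the animals, while the slow myosin gene Myh7 ranged from 6.996 to 14.65. In whole muscle, a change in the number of cells of a type and a change of RNA per cell cannot be told apart.

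Odc1 and Amd2, which start polyamine synthesis, and Smox were all read at higher levels in males than in females. In all levels below, intensity is normalized and on the log2 scale, and differences are female minus male from 1 limma fit across all 23098 tested probes with genotype and dye as terms (SE, n = 4 animals of each sex). The levels of 1 probe are never set against those of another. All 8 probes of Odc1, Amd2 and Smox were higher in each of the 4 males than in any of the 4 females. Among all tested probes 9.68% were higher in males without overlap, and since the spread between animals chose these 3 genes, nothing is read from their count.

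Odc1, the rate-limiting enzyme of the pathway, was 2.31 to 2.89 times as high in males by its 3 probes. The brightest probe gave log2 intensity of 13.82 and 12.98 in wild type males 1 and 2, 13.73 and 12.71 in mutant males 1 and 2, 11.56 and 11.62 in wild type females 3 and 4, and 12.04 and 11.90 in mutant females 3 and 4. Both animals of array 1 were above both animals of array 2 among the males, and the lowest male stood 0.66 above the highest female. The fitted difference was −1.53 (SE 0.28), and it was −1.06 without pair 1 and −2.00 without pair 2. The other 2 probes gave −1.21 (SE 0.23) and −1.30 (SE 0.24). All 3 probes thus put the males of array 1 highest.

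Amd2, which makes the aminopropyl donor, had the largest difference of the 8 genes measured. Its brightest probe gave 16.68 and 17.47 in wild type males 1 and 2, 17.16 and 16.51 in mutant males 1 and 2, 14.20 and 14.47 in wild type females 3 and 4, and 14.59 and 14.30 in mutant females 3 and 4. The other 2 probes had their lowest male at 13.96 and 13.19 and their highest female at 10.98 and 10.06. The sexes were thus set apart by 1.92, 2.98 and 3.13 log2 units between the nearest animals. Fitted differences were −2.56 (SE 0.15), −3.32 (SE 0.11) and −3.59 (SE 0.13), so that males were 5.90 to 12.1 times as high. By size these stood at places 16, 8 and 7 of the 23098 probes, and since its spread chose Amd2, nothing is read from these places. The probes differed in the size of the difference and not in its direction. In unnormalized spot signal within the Cy3 channel, the brightest probe read 57056 and 47333 units in 2 males and 11309 and 11405 units in 2 females. In the Cy5 channel it read 264061 and 400270 units in 2 males and 38143 and 35996 units in 2 females. As a description, the ratio of the male mean to the female mean before normalization was 4.60 in Cy3 and 8.96 in Cy5. The sexes lay on different arrays, so these ratios also hold any difference between the arrays. No probe of these genes was saturated in any animal.

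Smox, which converts spermine to spermidine, was 4.75 times and 4.13 times as high in males by its 2 probes. The brighter probe gave 15.64 and 15.62 in wild type males 1 and 2, 16.61 and 15.47 in mutant males 1 and 2, 13.55 and 13.71 in wild type females 3 and 4, and 13.74 and 13.35 in mutant females 3 and 4. Mutant male 1 was the highest of all by both probes (14.26 by the other), and the other 3 males lay close together. Fitted differences were −2.25 (SE 0.21) and −2.05 (SE 0.15).

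**Figure D1:**
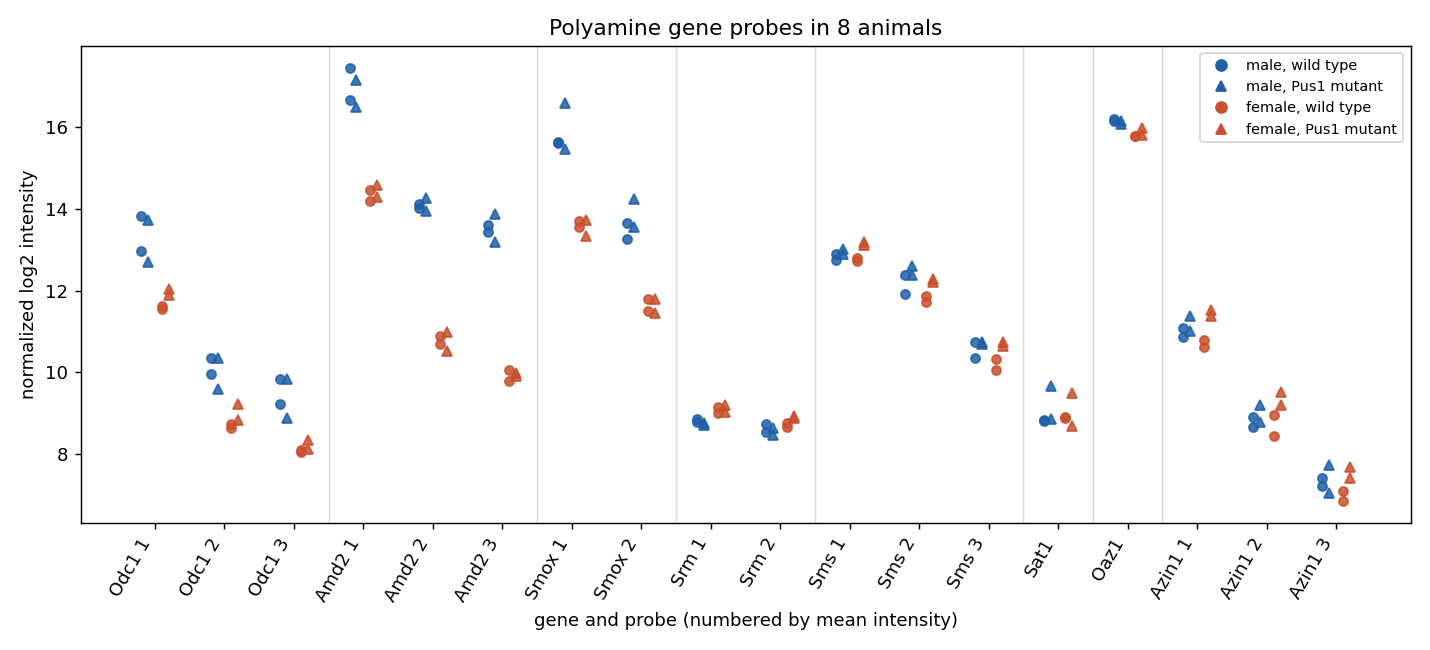
Normalized log2 intensity (vertical axis) of the 18 probes (horizontal axis, numbered within a gene by mean intensity) in each of 8 animals, with sex by colour and genotype by shape. Males and females do not overlap for the 8 probes of Odc1, Amd2 and Smox, and they overlap for 8 of the other 10 probes.

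The difference between the sexes was present in both genotypes. Mean female minus mean male of the brightest probe was −1.81 in wild type and −1.25 in mutants for Odc1, −2.73 and −2.39 for Amd2, and −2.00 and −2.49 for Smox, over 2 animals a sex in each genotype. Of the sum of squares over the 8 animals, the sexes held 81.3% to 83.1% for Odc1, 91.8% to 93.1% for Smox and 95.1% to 99.2% for Amd2, while the median over all tested probes was 24.4%. A share as high as that of Odc1 was also held by Oaz1 (83.8%) and by 1 probe of Srm (84.3%, the other 55.0%). For Sms, Sat1 and Azin1 it was at most 28.7%. The SD over 8 animals lay between the 97.0th and the 99.96th percentile of tested probes for these 8 probes. A high place was given by the choice of these genes for their spread, so nothing is read from it. The remaining SD within a sex was 0.18 to 0.42 (median of all tested probes 0.17). Most of the spread that chose the 3 genes was thus between males and females.

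No probe of the synthases, Sat1 or the regulators passed the test between the sexes. Srm, spermidine synthase, had 1 probe of 2 on which all females were above all males, at 9.16, 9.01, 9.02 and 9.20 in wild type females 3 and 4 and mutant females 3 and 4, against 8.85, 8.78, 8.72 and 8.75 in wild type males 1 and 2 and mutant males 1 and 2. The difference was 0.32 (SE 0.10) and did not pass (limma adjusted p = 0.116), and the other probe gave 0.22 (SE 0.11) with overlap. With the scanner's processed signals, which moved the median of all probes from −0.03 to −0.36, the difference of the first probe turned to −0.10. In all, 7.62% of tested probes were higher in females without overlap. Oaz1, antizyme, was 16.20, 16.15, 16.08 and 16.15 in wild type males 1 and 2 and mutant males 1 and 2, and 15.78, 15.79, 15.98 and 15.83 in wild type females 3 and 4 and mutant females 3 and 4. All males lay above all females, as was so for 9.68% of tested probes. The difference was −0.30 (SE 0.11) and did not pass (limma adjusted p = 0.152), and with the processed signals it was −0.72 (limma adjusted p = 0.0760).

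Sms, Sat1 and Azin1 gave no consistent order of the sexes. The 3 probes of Sms, the X-linked spermine synthase, gave differences of 0.07 (SE 0.12), −0.30 (SE 0.13) and −0.19 (SE 0.13). Azin1 gave 0.00 (SE 0.17), 0.14 (SE 0.20) and −0.10 (SE 0.21), and Sat1, also X-linked, gave −0.04 (SE 0.18). Of the 10 probes of Srm, Sms, Sat1, Oaz1 and Azin1, 0 passed an adjusted p of 0.05 in limma and 3 had an unadjusted p under 0.05. Over all probes 1.36% passed (118 higher and 195 lower in females, against 49 and 236 with the scanner's processed signals), and 22.8% had an unadjusted p under 0.05. The 313 probes that passed became 16 to 3383 when 1 pair was left out.

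**Figure D2:**
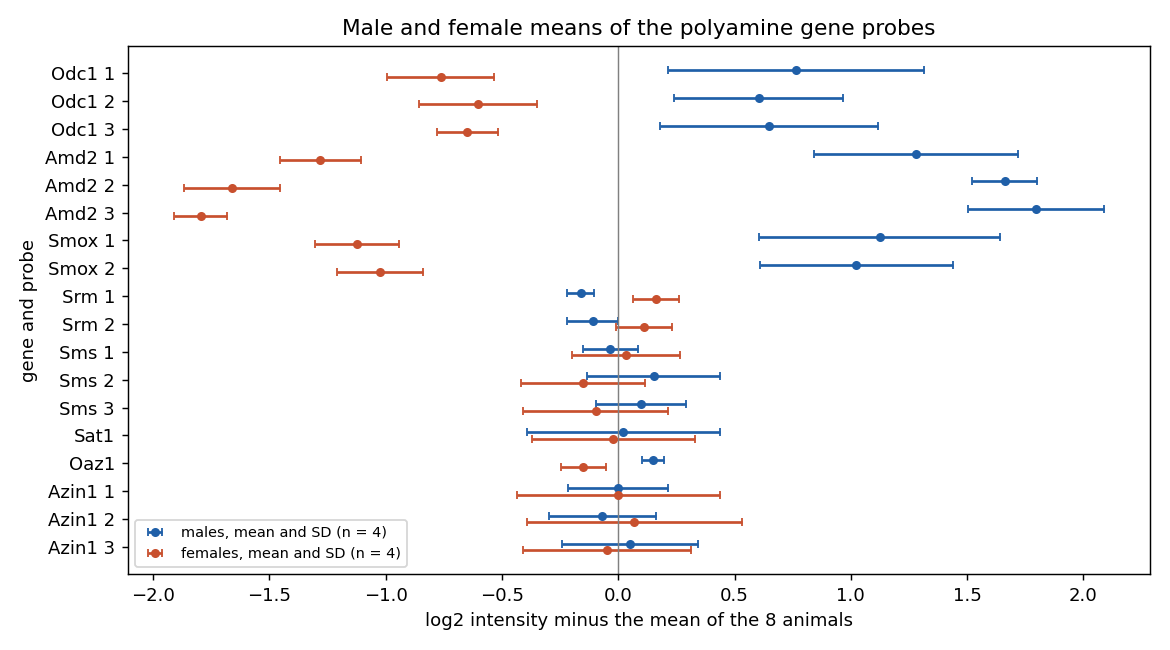
Mean and SD (n = 4) of males and of females for each of 18 probes, as log2 intensity minus the mean of the 8 animals (horizontal axis), with probes on the vertical axis. Males lie above females for all probes of Odc1, Amd2 and Smox, with fitted female minus male differences of −3.59 to −1.21, while the means of Srm, Sms, Sat1, Oaz1 and Azin1 give fitted differences of −0.30 to 0.32.

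The effect of the Pus1 mutation was examined within the pairs, as the log2 ratio of mutant over wild type on each array, fitted with a dye term (SE, n = 4 pairs). No probe of the polyamine genes passed (limma adjusted p of 1.00 for each of the 10 probes tested, against 0% called over all probes). An unadjusted p under 0.05 was reached by 5 of these 10 probes (2 of Sms, 2 of Azin1 and that of Sat1) and by 3.35% of all probes. Probes of 1 gene read the same gene in the same animals, so counts of probes hold repeats. By the brightest probe, Azin1 (limma unadjusted p = 0.0139) and Sat1 (0.0187) were under 0.05, and Sms (0.0581), Srm (0.781) and Oaz1 (0.765) were not. The median ratio of the 10 probes was 0.32, with 9 of 10 above 0, where the median of all probes was 0.00. The highest fitted ratio of a single probe was that of Azin1 (0.48), followed by another of Azin1 (0.44) and 1 of Sms (0.40). Among the 18 probes, 3 were higher in the mutant of 4 of 4 pairs, 2 of Azin1 and 1 of Sms, where the share over all probes was 4.83%.

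The brightest probe of Azin1, the antizyme inhibitor, gave 11.08, 10.87, 10.79 and 10.63 in wild types 1 to 4 and 11.38, 11.01, 11.52 and 11.38 in mutants 1 to 4. The mutant was higher in every pair, but mutant 2 lay below wild type 1, so the groups overlap. Pair ratios were 0.30, 0.15, 0.73 and 0.75, larger in both female pairs, with a fitted mean of 0.48 (SE 0.14). The fitted mean was 0.37 without pair 3 and 0.33 without pair 4. The other 2 probes gave 0.44 (SE 0.17) and 0.32 (SE 0.17), the last with a lower mutant in pair 2.

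For Sms, the brightest probe gave 12.90, 12.74, 12.73 and 12.79 in wild types 1 to 4 and 12.89, 13.03, 13.20 and 13.11 in mutants 1 to 4. Mutant 1 was level with its wild type partner and the other 3 mutants lay above every wild type animal. The pair ratios were −0.01, 0.29, 0.47 and 0.32, with a fitted mean of 0.27 (SE 0.11), and without pair 3 it was 0.14. The other 2 probes gave 0.40 (SE 0.09, higher in 4 of 4 pairs) and 0.34 (SE 0.11, higher in 3 of 4).

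Sat1, the acetyltransferase, gave 8.82, 8.81, 8.91 and 8.87 in wild types 1 to 4 and 9.66, 8.86, 9.50 and 8.70 in mutants 1 to 4. The 2 high mutants were those labelled with Cy5, and the 2 labelled with Cy3 lay close to their partners. The pair ratios were 0.84, 0.05, 0.59 and −0.17, with a fitted mean of 0.33 (SE 0.10) after the dye term. With no dye term the fitted mean was the same and its SE was 0.17. Srm gave −0.03 (SE 0.09) and 0.06 (SE 0.11) and Oaz1 gave 0.03 (SE 0.10). As a description, fitted ratios were −0.06 to 0.02 for the 3 probes of Amd2, −0.01 to 0.10 for the 3 of Odc1 and 0.16 to 0.21 for the 2 of Smox. By the brightest probe these ran from −0.26 to 0.13 for Amd2, from −0.04 to 0.24 for Odc1 and from −0.04 to 0.35 for Smox when 1 pair was left out, so their direction turned.

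**Figure D3:**
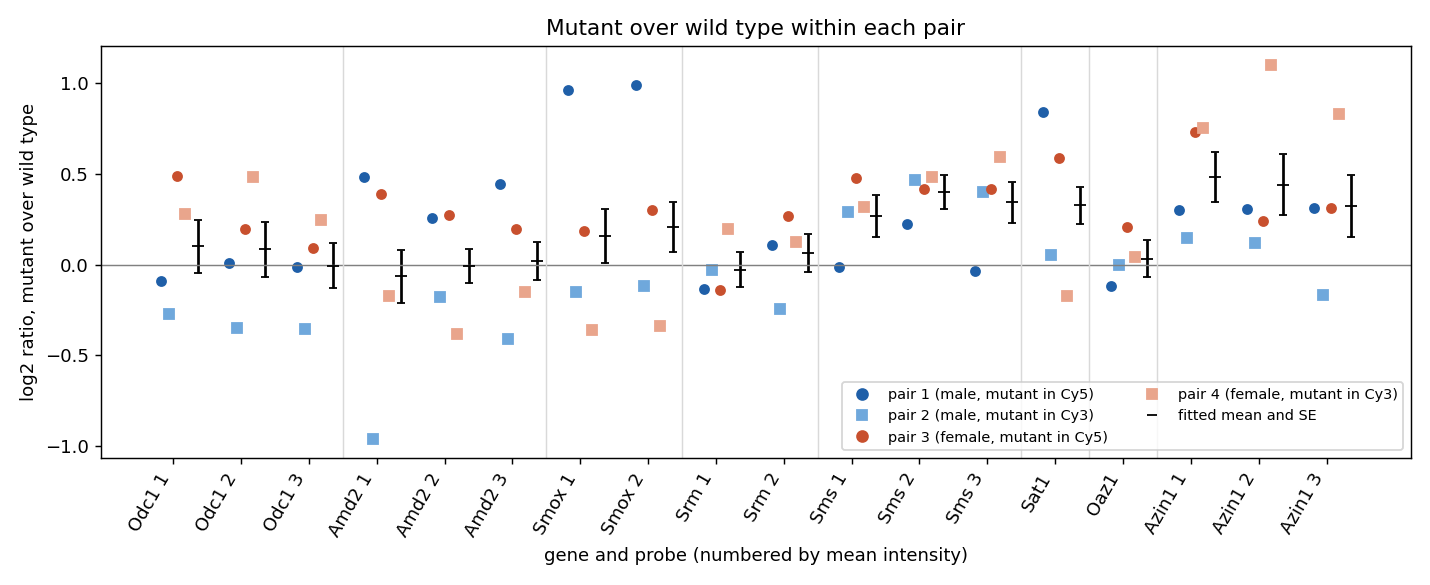
Log2 ratio of mutant over wild type (vertical axis) in each of 4 pairs for the 18 probes (horizontal axis), with the fitted mean and its SE in black. Circles are pairs with the mutant in Cy5 and squares those with the mutant in Cy3. The fitted means of Azin1 lie between 0.32 and 0.48 and those of Sms between 0.27 and 0.40, and none passed the test.

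Whether the mutation acted alike in both sexes was asked with a sex term in the same fit, where 0% of all probes passed. Of the 10 probes tested, 0 passed and 0 had an unadjusted p under 0.05, where 2.19% of all probes did. This fit left few residual degrees of freedom per probe, so the absence of calls says little. The ratio was larger in females for 9 of the 10 probes, with a median difference of 0.26, against 0.02 over all probes. The ratio in females minus that in males was 0.46 to 0.52 for the 3 probes of Azin1 (SE 0.22 to 0.31). As a description, this difference of ratios was 0.35 to 0.56 for the 3 probes of Odc1, −0.09 to 0.35 for the 3 of Amd2 and −0.49 and −0.45 for the 2 of Smox, so the 3 genes did not go one way.

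Around this core, 34 genes of precursor supply, methionine salvage, transport and hypusine formation were listed, of which 26 had a tested probe. In the comparison of genotypes 0 passed, and the median ratio was 0.06, against 0.00 over all probes, with 18 genes above 0. Those with the smallest p were the arginine and lysine transporter Slc7a1 (0.27, SE 0.11), Ahcyl2, a relative of S-adenosylhomocysteine hydrolase (−0.26, SE 0.12), and the hypusine-forming deoxyhypusine hydroxylase Dohh (0.18, SE 0.09). In the comparison of sexes 0 passed, and the median difference was 0.04, against −0.03 over all probes. Those with the smallest p were Agmat, an agmatinase homologue that was well above background in 6 of 8 animals (0.74, SE 0.17, limma adjusted p = 0.0738), Slc3a2, the heavy chain of amino acid transporters (0.40, SE 0.10, adjusted p = 0.0873), and Mat2a, which makes S-adenosylmethionine (−0.50, SE 0.13, adjusted p = 0.0978). Mat2a was 14.18, 14.00, 14.36 and 14.18 in wild type males 1 and 2 and mutant males 1 and 2, and 13.86, 13.54, 13.78 and 13.55 in wild type females 3 and 4 and mutant females 3 and 4. The males thus lay above the females without overlap, as did 9.68% of all tested probes. Agmat and Slc3a2 separated the sexes the other way, as did 7.62% of all tested probes. Agmat was 6.79 to 6.93 in males and 7.20 to 7.89 in females, and Slc3a2 was 10.80 to 10.93 and 11.20 to 11.33.

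Genes with the pattern most like the 3 were sought by Pearson correlation of log2 intensity over the 8 animals, among 11893 named genes by their brightest tested probe. Since males and females form 2 clusters, this measure mostly reads the split between them. Nearest to Amd2 were Cbr2 (r = 0.993), St3gal5 (0.990), Pdgfa (0.988), Phyhd1 (0.984) and Ly6g6d (0.980). Each was higher in males, by 0.73 for Pdgfa to 2.19 for Phyhd1. Nearest to Smox were Trim24 (r = 0.991), Lbx1 (0.991), 8430426J06Rik (0.988), Jag1 (0.987) and 1110008P14Rik (0.986). Nearest to Odc1 were Zik1 (r = 0.986), Mepe (0.981), Vps37d (0.980), Marchf9 (0.980) and Anxa7 (0.977), with smaller differences between the sexes than Odc1 itself. None of these genes near Odc1 passed the test between the sexes, nor did Lbx1 and 1110008P14Rik near Smox. Zik1, Mepe and Vps37d were dim, with means of 6.83, 6.99 and 7.07 in females.

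Markers of other cell types and states were set beside these differences. Of 8 marker lists for cell types, the summed intensity of adipocyte markers (10 of 12 genes tested) separated the sexes, at log2 16.41 to 16.81 in males and 17.14 to 17.82 in females, where 6 of 10 genes were higher in females and 0 passed. Most of this sum was the intensity of Car3, which muscle also expresses (mean 16.24 in males and 17.18 in females). The median deviation of the adipocyte markers overlapped, at −0.64 to 0.44 in males and −0.16 to 0.28 in females. The fitted differences of the genes ran from −0.28 for Fabp4 to 0.94 for Car3. Above 0 were Car3, Scd1 (0.76), Cfd (0.60), Plin4 (0.59), Retn (0.28) and Thrsp (0.02), and below 0 were Fabp4, Plin1 (−0.17), Adipoq (−0.09) and Cidec (−0.02). Fast fibre markers lay at 21.75 to 22.06 in males and 21.53 to 22.24 in females, and slow fibre markers at 16.85 to 17.84 and 16.59 to 17.88. The summed intensity of slow fibre markers separated the genotypes instead, at 17.35 to 17.88 in wild type and 16.59 to 17.31 in mutants. The median deviation of these markers overlapped, at −0.11 to 0.67 in wild type and −0.78 to 0.32 in mutants. In the fitted mean of mutants, 21 of 21 slow fibre genes were lower and 12 of 12 fibroblast genes were higher, with 0 passing. The 10 macrophage genes tested were all higher in the fitted mean of mutants (median 0.25), as were 8 of 9 erythroid and 6 of 7 Schwann cell genes, and 5 of 11 endothelial genes, with 0 passing. Between the sexes, 9 of 9 erythroid, 10 of 12 fibroblast, 5 of 7 Schwann cell, 2 of 10 macrophage and 1 of 11 endothelial genes were higher in females, with 0 passing. The part of these cell types in the values of the polyamine genes was not tested.

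**Figure D4:**
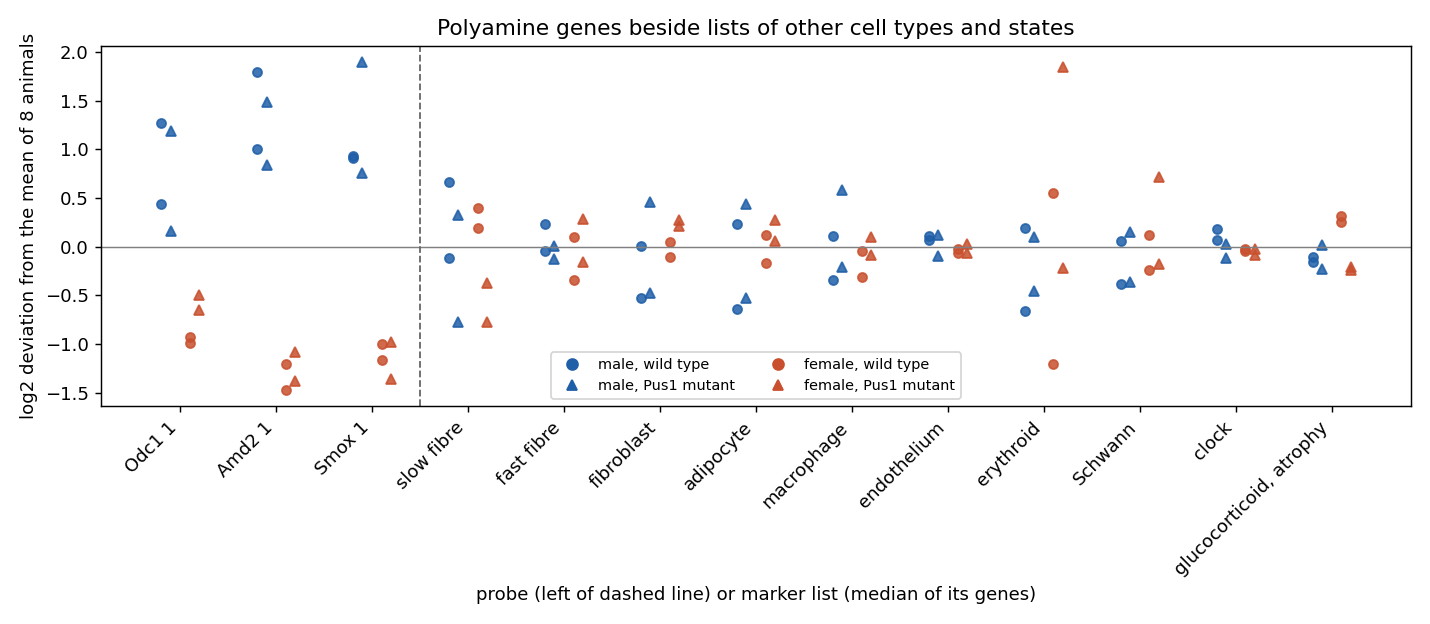
Log2 deviation from the mean of 8 animals (vertical axis) for the brightest probe of Odc1, Amd2 and Smox and, right of the dashed line, the median over the genes of 10 lists, in each animal. The polyamine probes separate the 4 males from the 4 females, while the medians of all 8 cell type lists overlap between the sexes.

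Lists of clock genes and of genes that respond to glucocorticoids or muscle wasting were included because polyamine enzymes are known to follow the time of day and stress. The median deviation of 16 clock genes was −0.12 to 0.18 in males and −0.09 to −0.02 in females, with 0 passing. A median cannot show genes that move in opposite directions, and here 6 genes were higher and 10 lower in females. Fitted differences ran from −0.68 (SE 0.15) for Bhlhe41 to 0.59 (SE 0.21) for Per1, with Arntl at −0.53 and Per2 at 0.42. An unadjusted p under 0.05 in limma was reached by 2 of the higher and 4 of the lower genes, against 22.8% of all probes. For 18 glucocorticoid and wasting genes the median deviation was −0.23 to 0.01 in males and −0.23 to 0.32 in females. Of these, 12 were higher and 6 lower in females, and 1 passed, where 1.36% of all probes did. That gene was the transcription factor Cebpb, higher in females by 1.02 (SE 0.17, limma adjusted p = 0.0344). Fbxo32 went the other way by a similar size (−1.07, SE 0.23) and did not pass (limma adjusted p = 0.0630).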

How the data were processed

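The authors deposited linear spot intensity values. Per the file headers they were extracted with Agilent Feature Extraction (version 10.7.3.1), together with flags for spots that were well above background, saturated or outliers and with processed intensity values that were background-subtracted and dye-normalized. The authors' deposited table for the series holds values that read as log2. Each probe is centred on a median of 0 (largest absolute probe median 9.55e-07), column medians lie between −0.02 and 0.03, and differences within arrays follow the log2 processed signals (correlation 0.961 to 0.988 across probes). It holds 0 columns from other series. The sources used here do not give its normalization.

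Probes were named through unversioned accessions in a RefSeq table of GRCm38.p6 (27656 probes with 1 symbol, 28025 with none). Since mm9 is the build in the file headers, that table gave names alone, and the promoter sequences keep its own coordinates. Median spot and background signals were corrected by normexp (offset 50) and normalized by loess, with control and outlier spots left out. The design had named no signal column, and the files hold medians. Testing was limited to the 23098 probes that had a value on all 4 arrays and exceeded background clearly in 4 or more of 8 animals. Ratios of mutant over wild type were fitted in limma 3.58.1 (R 4.3.3) with lmFit and eBayes. Levels and the difference between the sexes came from separate channels after Aquantile, with lmscFit and an intraspot correlation of 0.189. P-values were adjusted by Benjamini-Hochberg over all tested probes, with a threshold of 0.05. The fits were tested on simulated data. The number of arrays limits the precision. P-values between the genotypes rest on the spread between the pair ratios. Those between the sexes rest on the spread between animals, with 1 intraspot correlation assumed for all probes.

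Same-numbered animals shared an array, so the pairing is physical. Their deviations from the group means correlated at 0.66, 0.28, 0.06 and 0.64 across probes. All arrays lay on 1 slide. Each array held 1 sex, so the sexes were compared between arrays, 2 for each.

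The members and lists were chosen with earlier results of these data known. Named are every member's probes, Pus1, the 3 genes of the related list with the smallest p in each comparison, the 5 genes most alike in pattern to Odc1, Smox and Amd2, and members of marker lists that move with a member. The brightest tested probe stands for a gene.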

Additional observations from a re-analysis of the deposited data

Results flagged for a closer look

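Of 25 groups of 4 values tested for a value far from the rest (the brightest probe of Srm, Sms, Sat1, Oaz1 and Azin1 in each genotype, each sex and over the pair ratios), 1 stood out, where chance flags about 1 in 20. Among the males, mutant 1 had the highest Sat1 intensity (9.659, against 8.809 to 8.862 in the other 3).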

How the results depend on the processing

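The number of probes called between the genotypes was 0 and became 23 with each array centred on its median instead of loess, 5 when dim probes were kept, 2 with no dye term, 3 with no replicate block and 4 with separate channels, and it ran from 0 to 245 when 1 pair was left out (245 without pair 3). For the sex term it was 0 and became 22 with median centring, 38 with no filter and 1 with separate channels. Between the sexes it was 313 and became 545 with no filter and 831 with no replicate block, and it ran from 16 (without pair 4) to 3383 (without pair 2) when 1 pair was left out; it was 32 without pair 3. In the comparisons of genotypes and of sexes, none of these settings gave a call to the brightest probe of Srm, Sms, Sat1, Oaz1 or Azin1; the sex term was not followed per gene. The genotype ratio of Oaz1 was −0.0633 with median centring and −0.0274 with the scanner's processed signals, and −0.0493 to 0.112 when 1 pair was left out, and that of Srm was −0.0843 to 0.0291. The processed signals moved the median of all probes between the sexes to −0.36. With them the difference was −0.10 for Srm, −0.52 for Sms, −0.72 for Oaz1, −0.33 for Azin1, −2.99 for Amd2 and −1.98 for Odc1. In the authors' deposited table it was −0.11 for Sms, 0.0797 for Sat1 and 0.0665 for Azin1. When 1 pair was left out it was −0.25 to 0.17 for Sat1, −0.15 to 0.14 for Azin1, −2.60 to −2.53 for Amd2 and −2.54 to −1.96 for Smox. The causes were not tested. Without pair 1 or pair 3 the intraspot correlation could not be estimated and that of all arrays was used.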
